A study of Mus musculus with 16 samples.

Results

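The genes described here encode the collagens, the laminin chains and the other main proteins of basement membranes. They were picked out by a rule on symbols: every gene of the table of all genes named as a numbered collagen chain or as a laminin alpha, beta or gamma chain, together with Nid1, Nid2, Hspg2, Agrn, Fn1 and Sparc. This gave 59 genes of 25905, of which 42 were collagens, 11 were laminins and 6 were the others. The study compared retinas of wild type C57BL/6 male mice, 10 weeks old when flown, that had lived aboard the International Space Station with those of ground control mice kept in the same habitat hardware and fed the same diet. Each group had 8 libraries, each from the retina of a right eye.

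Basement membranes are thin sheets of matrix that underlie epithelia and surround vessels. Laminins are cross-shaped heterotrimers of an alpha, a beta and a gamma chain that assemble on the cell surface. Collagen IV forms a second, covalently crosslinked network, and nidogens and the proteoglycan perlecan join the networks to each other. In the retina, such sheets are the inner limiting membrane at the vitreous, the walls of the retinal vessels and, in the layer beneath the pigment epithelium, Bruch's membrane.

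What was measured is the level of each gene over all 16 retinas together. The level is the mean, over all libraries, of read counts that the authors divided by the library size factors, here named the mean normalized count. It pools the spaceflight and ground control groups. The count columns for single libraries carry laboratory codes that match no mouse, so a level per mouse, its SD, a depth per library and a difference between the groups are not analysed here. No replicate error stands beside the values for this reason, and whether levels of neighbouring genes differ by more than the spread between mice was not tested.

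The collagen genes shared a feature of sequence, a glycine repeat, that comes with being a collagen and so with the choice by symbol. A collagen helix needs glycine at 1 of every 3 positions, so its coding sequence repeats a glycine codon (GG and any base) followed by 2 other codons. The stretches below show this repeat in the collagen gene with the highest level (Col23a1), in the classical fibrillar chain of skin and sclera (Col1a1) and in the 4 chains of collagen IV with the highest levels. They are read 5′ to 3′ from the coding sequence of the counted transcript in the GENCODE M21 annotation of build GRCm38. Capitals mark the glycine codons that keep the repeat. In the chains of collagen IV, the long lower-case stretch in the middle starts with the 2 codons that complete a triplet. The rest of it is the interruption that ends the longest run.
Col23a1, codons 110 to 139, gene at chr11:51289920-51583918, + strand: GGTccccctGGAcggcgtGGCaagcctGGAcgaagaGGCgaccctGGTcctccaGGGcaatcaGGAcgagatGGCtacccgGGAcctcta
Col1a1, codons 168 to 197, gene at chr11:94936224-94953042, + strand: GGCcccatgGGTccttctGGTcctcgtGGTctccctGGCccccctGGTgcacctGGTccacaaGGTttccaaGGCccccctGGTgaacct
Col4a1, codons 148 to 187, gene at chr8:11198423-11312826, - strand: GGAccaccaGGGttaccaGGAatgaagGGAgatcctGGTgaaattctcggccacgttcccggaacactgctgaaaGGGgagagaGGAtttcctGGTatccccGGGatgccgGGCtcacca
Col4a2, codons 960 to 1000, gene at chr8:11312805-11449287, + strand: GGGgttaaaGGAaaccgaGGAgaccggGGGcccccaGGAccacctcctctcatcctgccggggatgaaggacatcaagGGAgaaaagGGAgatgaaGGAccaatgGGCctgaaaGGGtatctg
Col4a3, codons 145 to 185, gene at chr1:82586921-82722059, + strand: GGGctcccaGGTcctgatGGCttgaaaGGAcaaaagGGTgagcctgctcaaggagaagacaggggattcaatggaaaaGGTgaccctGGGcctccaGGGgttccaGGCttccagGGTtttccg
Col4a4, codons 943 to 977, gene at chr1:82448423-82586849, - strand: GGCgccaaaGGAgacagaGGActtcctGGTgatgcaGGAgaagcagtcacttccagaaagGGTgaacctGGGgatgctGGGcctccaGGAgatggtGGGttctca

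For Col12a1 and Col6a3, whose counted transcript was not found in that annotation, the longest coding sequence was used. The 11 fibrillar collagen genes held a longest unbroken run of 216 to 344 glycine triplets. The 6 genes of collagen IV held 39 to 66 in theirs, and 17 to 24 separate runs of at least 3 triplets each. The interruption shown is 10 codons long in Col4a1, 11 in Col4a2, 11 in Col4a3 and 5 in Col4a4. Collagen IV is known for such interruptions, which make its helix flexible. The remaining collagen genes lay between 28 triplets in the longest run of Col28a1 and 113 in those of Col9a1, Col9a2, Col9a3 and Col22a1.

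**Figure D1:**
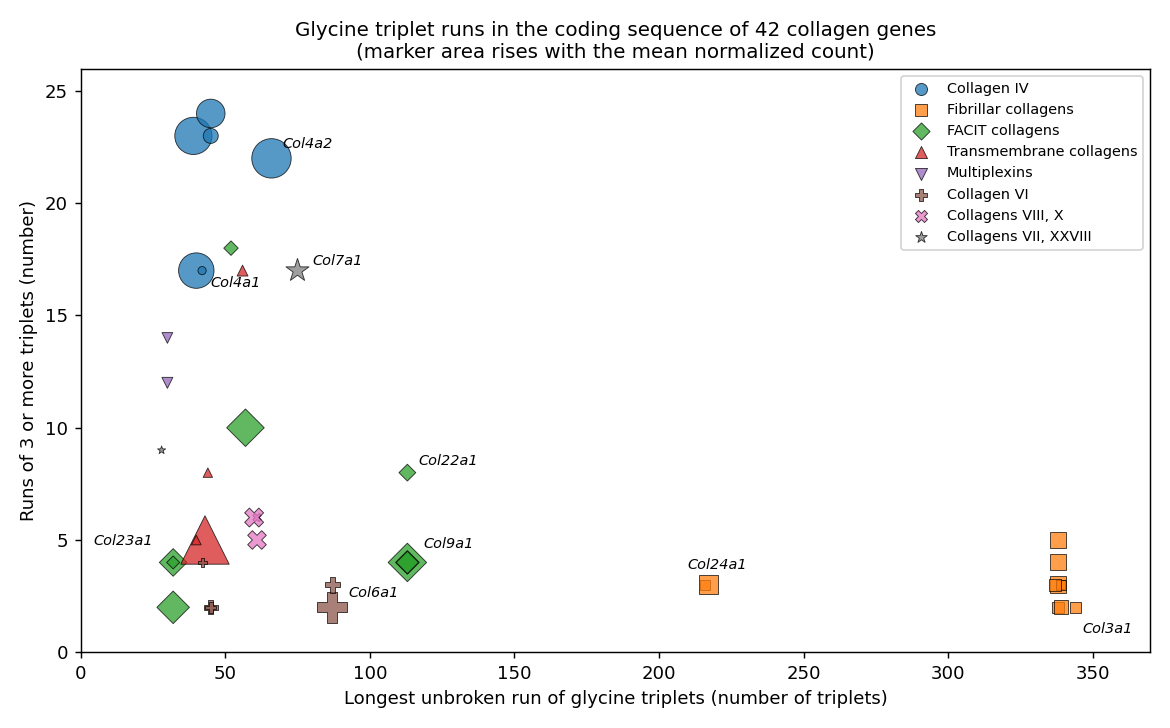
Each of the 42 collagen genes by the number of triplets in its longest unbroken glycine run (x axis) and the number of runs of at least 3 triplets (y axis), with marker area rising with the mean normalized count. The fibrillar collagens sit at 216 triplets and above, and the chains of collagen IV at 66 and below.

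Together the 59 genes held 0.112% of the summed level of all genes. Their sum was 7821, while Gnat1, the transducin subunit of rods, alone reached 154477. The median gene among the 59 had a mean normalized count of 45.1, against 41.8 for all 19667 genes above 0. This order turned among genes counted under 1 RefSeq transcript, where the median was 52.4 for the 54 such genes of the 59 and 63.3 for all such genes above 0. A level of at least 100 was reached by 18 of the 59 genes (30.5%), against 39.9% of the genes above 0 and 30.3% of all genes in the table. Levels were uneven, and the 5 highest genes (Sparc, Col23a1, Fn1, Agrn and Col4a2) made up 48.3% of the sum. At the low end, 10 genes were under 10, and 6 of these were counted under 1 transcript. Of the 10, Col10a1 and Col4a5 were under 1.

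**Figure D2:**
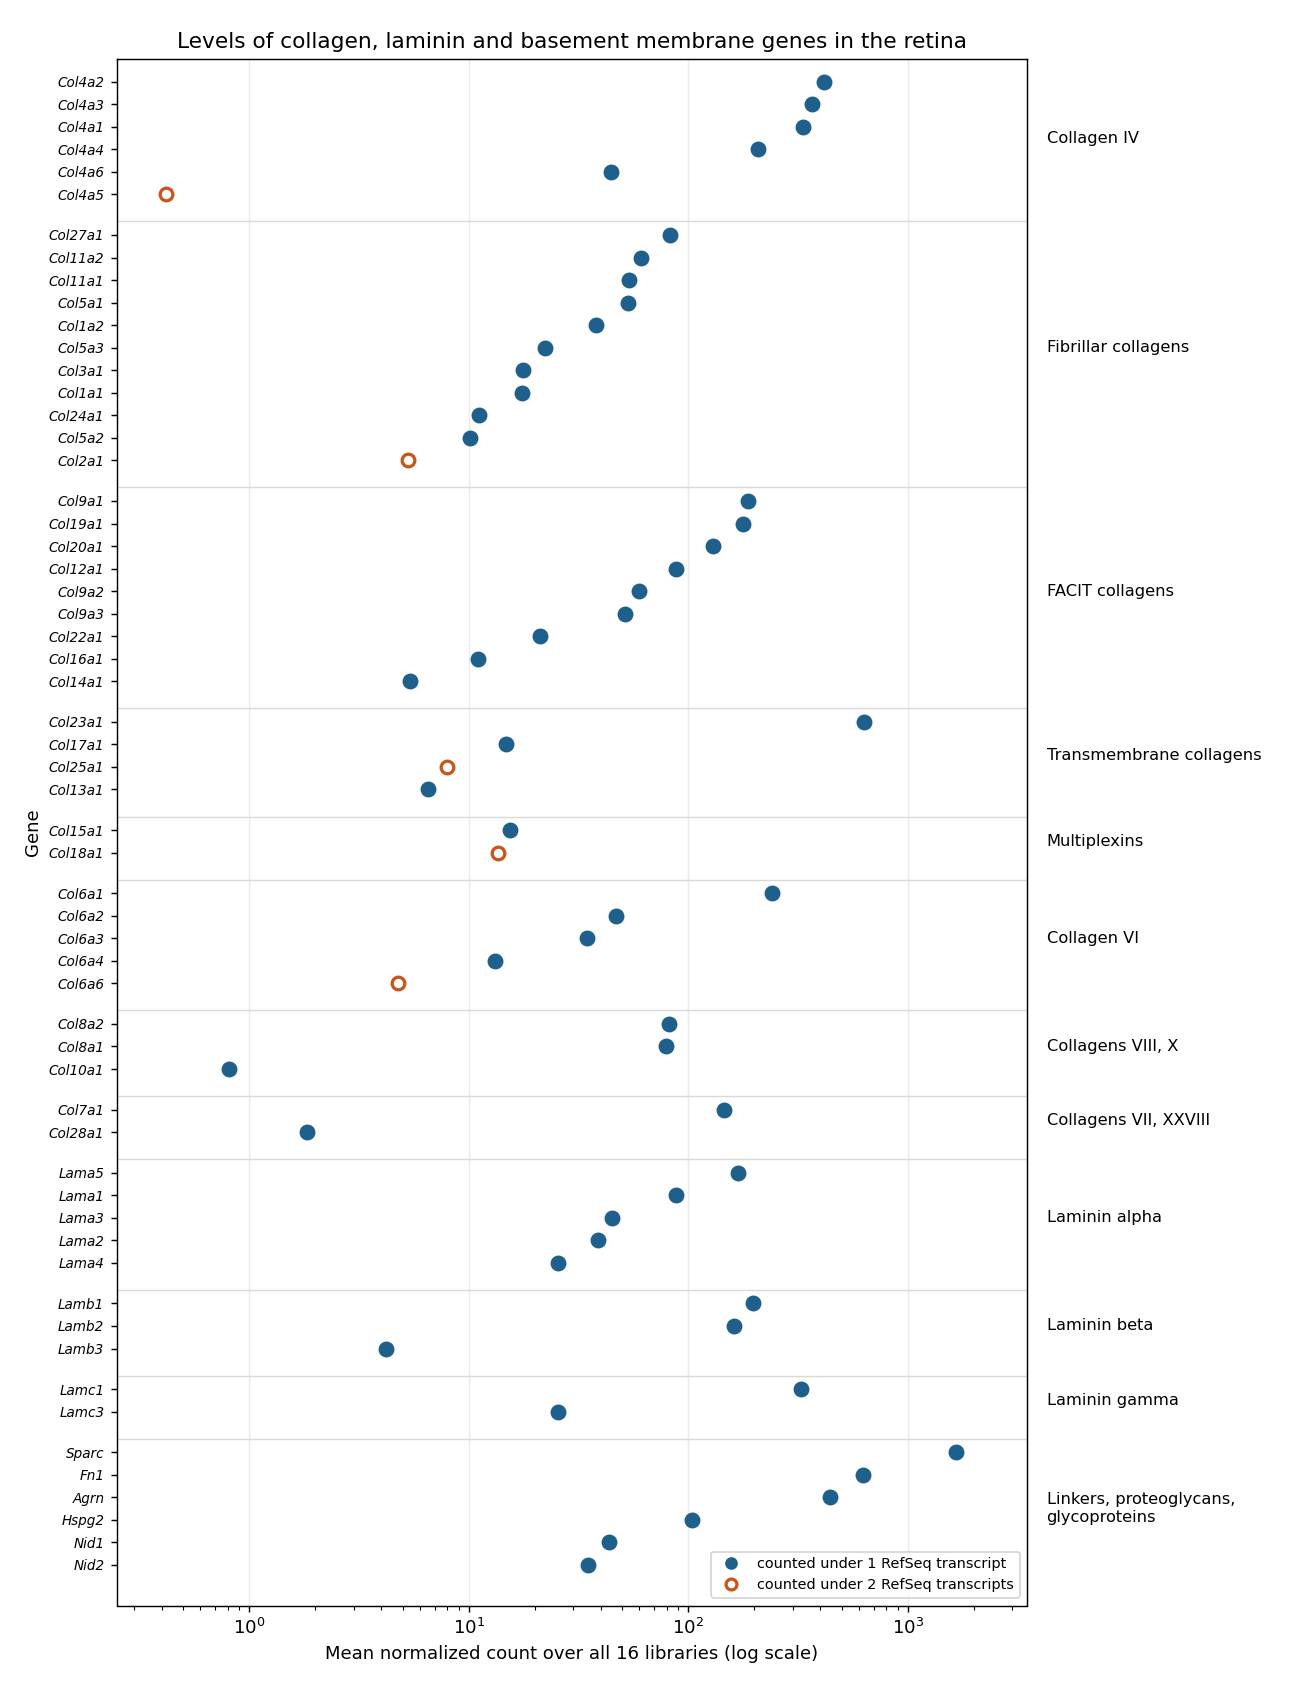
Mean normalized count of the collagen, laminin and basement membrane genes on a log axis, by family, where each point is the authors' mean over the 16 libraries without an error and open points are the 5 genes counted under 2 RefSeq transcripts. Sparc is the highest at 1659, and the open points are all at or below 13.7.

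Low values cannot be read alike for all genes, because the authors counted reads on RefSeq transcripts and the level moved with how many transcripts of a gene were counted. Genes counted under 1 transcript (22086 genes) had a median of 12.9, and 48.3% were under 10. Those counted under 2 or more (3794 genes) had a median of 0.806, and 75.4% were under 10. Among 1754 genes with 2 counted transcripts that were both found in GENCODE M21, the median was 0.379 where less than 10% of the exon bases belonged to 1 of the transcripts only (650 genes). It was 1.72 where this share was 10% to 30% (414 genes), and 10.6 where it was above (690 genes). Known genes of retinal cells were among those with 2 counted transcripts or more and low values, such as Rlbp1 of Müller glia at 1.39, Pde6c of cones at 0.0699 and the endothelial Pecam1 at 0.446. Not all were low, since Trpm1 of bipolar cells, with 2 counted transcripts, was at 2866. How reads that fit more than 1 transcript were assigned is not given in the sources used here, and its part in these levels was not tested.

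This touched 5 of the 59 genes. Col18a1, which encodes the precursor of endostatin, was at 13.7, and Col25a1, a transmembrane collagen of neurons, at 8.005. Col2a1, the main fibrillar collagen of the vitreous and of cartilage, was at 5.30. Col6a6 was at 4.79. Col4a5, a collagen IV chain, was at 0.420. The share of exon bases that set the counted transcripts apart was 3.84% in Col4a5 and 4.74% in Col2a1, but 30.4% in Col18a1, 60.9% in Col6a6 and 65.0% in Col25a1. The values of these genes are therefore given as listed and are not compared singly with the other 54. The medians, sums and counts over the 59 genes and their families do include them.

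**Figure D3:**
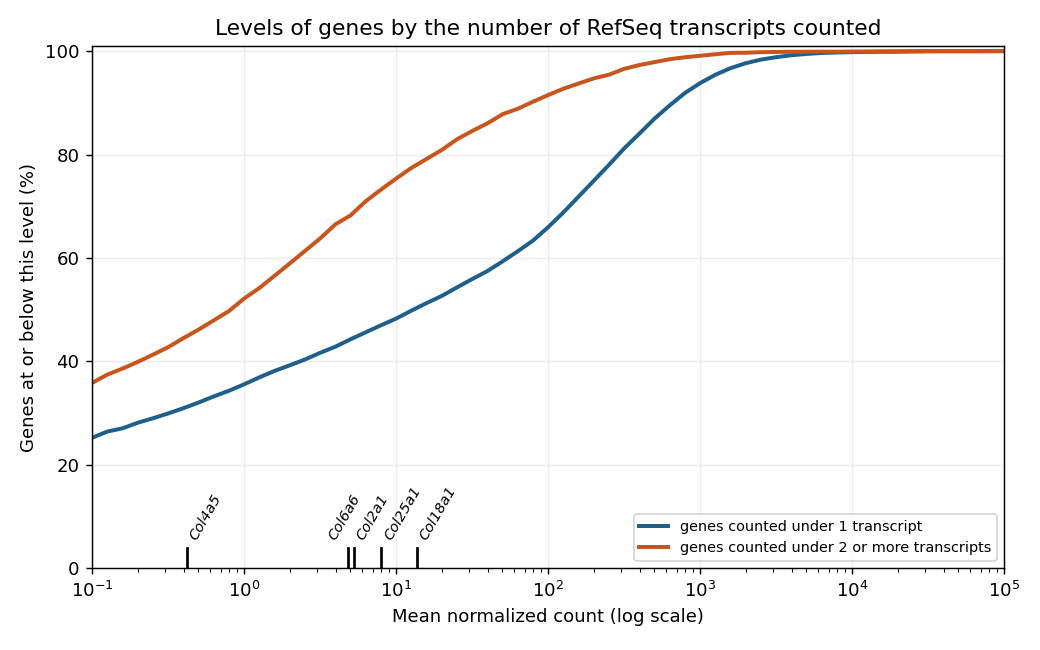
Share of genes in percent (y axis) at or below each mean normalized count (log x axis), for genes counted under 1 RefSeq transcript and under 2 or more, with short black lines at the 5 collagen genes counted under 2. At a level of 10 the curves stand at 48.3% and 75.4%.

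Collagen IV held the largest part of any collagen family, 17.5% of the sum of the 59 genes. Col4a2 was at 415 and Col4a1 at 332, the partners of the heterotrimer found in nearly all basement membranes. Col4a3 was at 368 and Col4a4 at 209, which together with the chain of Col4a5 form the network known from the kidney glomerulus and affected in Alport syndrome. Col4a6 was lower, at 44.6. The 4 highest chains lay between the 71.4th and the 82.1th percentile of genes above 0. Col4a5, listed at 0.420, is the chain with the least distinct pair of counted transcripts described above and was not compared with its partners.

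Levels of different genes were compared per kb, since long transcripts yield more reads, and an order given without length is that of counts alone. The length used was that of all annotated exons of a gene in GENCODE M21. The level per kb was 62.7 for Col4a2, 44.5 for Col4a1, 36.9 for Col4a3, 19.7 for Col4a4 and 5.59 for Col4a6. Col4a2 was thus 1.41 times Col4a1 per kb, and Col4a3 was 1.88 times Col4a4. Both orders held with each other length tried and without division by length. The order of Col4a3 and Col4a1 did not hold. The ratio was 0.830 per kb of exons and 0.857 per kb of the counted transcript, but 1.11 per kb of coding sequence and without division.

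The collagen IV genes lie in pairs, head to head on opposite strands. On build GRCm38 the annotated start of Col4a3 is 71 bases from that of Col4a4 on chromosome 1, and those of Col4a5 and Col4a6 are 1308 bases apart on chromosome X. Col4a1 and Col4a2 on chromosome 8 overlap by 22 bases at their starts, shown here because it belongs to both genes, whose levels were 332 and 415. The sequence is from RefSeq on build GRCm38.p6, + strand, and capitals mark a GC box (GGGCGG on either strand), the site known for binding of Sp1.
Col4a1 and Col4a2, chr8:11312805-11312826: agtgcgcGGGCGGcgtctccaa

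In windows of 300 bases, 250 before and 50 after the start, RefSeq promoters were found for 43 of the 59 genes, in 48 windows. The GC box was held by 60.4% of these windows, against 35.9% of all 32544 windows. The letters CCAAT, on either strand, were held by 31.2% against 37.4%, and TATAAA by 10.4% against 13.6%. The median GC content was 59.8% against 53.0%, and whether the share with a GC box differs at equal GC content was not tested. Windows were not all separate, since those of Col4a1 and Col4a2 overlap by 78 bases. Promoter windows of Agrn, Hspg2, Lama5, Col4a1 and Col4a2 held a GC box, and those of Sparc, Col4a4 and Lamb2 held none of these letters.

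Among the laminins, the gamma chain Lamc1 had the highest count at 327. It is the gamma chain of most laminins. The beta chains Lamb1 and Lamb2 were at 199 and 162, and Lamb2 is the chain whose loss causes Pierson syndrome of kidney and eye. The alpha chains were led by Lama5 at 169, then Lama1 at 88.3, Lama3 at 45.1, Lama2 at 38.9 and Lama4 at 25.6. Lama4 and Lama5 are among the alpha chains of vessel walls, and Lama1 is among those of early embryonic basement membranes and of the inner limiting membrane. These sites are not exclusive, and which structure each level came from was not tested. Lamc3 was at 25.6. Lamb3, a beta chain known from the skin, was at 4.20.

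Per kb of exons, Lamc1 stood at 39.5, Lamb2 at 26.6, Lamb1 at 20.02 and Lama5 at 14.9. Lamc1 was thus 1.98 times Lamb1, but 1.25 times per kb of the counted transcript. It was 2.66 times Lama5 per kb of exons and 4.47 times per kb of coding sequence. Lama5 was 1.63 times Lama1. The order of Lamb1 and Lamb2 turned only with the length of all exons. Their ratio was 0.753 per kb of exons. It was 1.20 per kb of the counted transcript, 1.205 per kb of coding sequence and 1.23 by counts alone. Lamb1 has 9917 bases of annotated exons but a counted transcript of 5784. Col4a1 and Lamc1, core chains of the collagen and the laminin network, were close. Their ratio was 1.13 per kb of exons, 1.17 per kb of the counted transcript and 0.978 per kb of coding sequence.

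**Figure D4:**
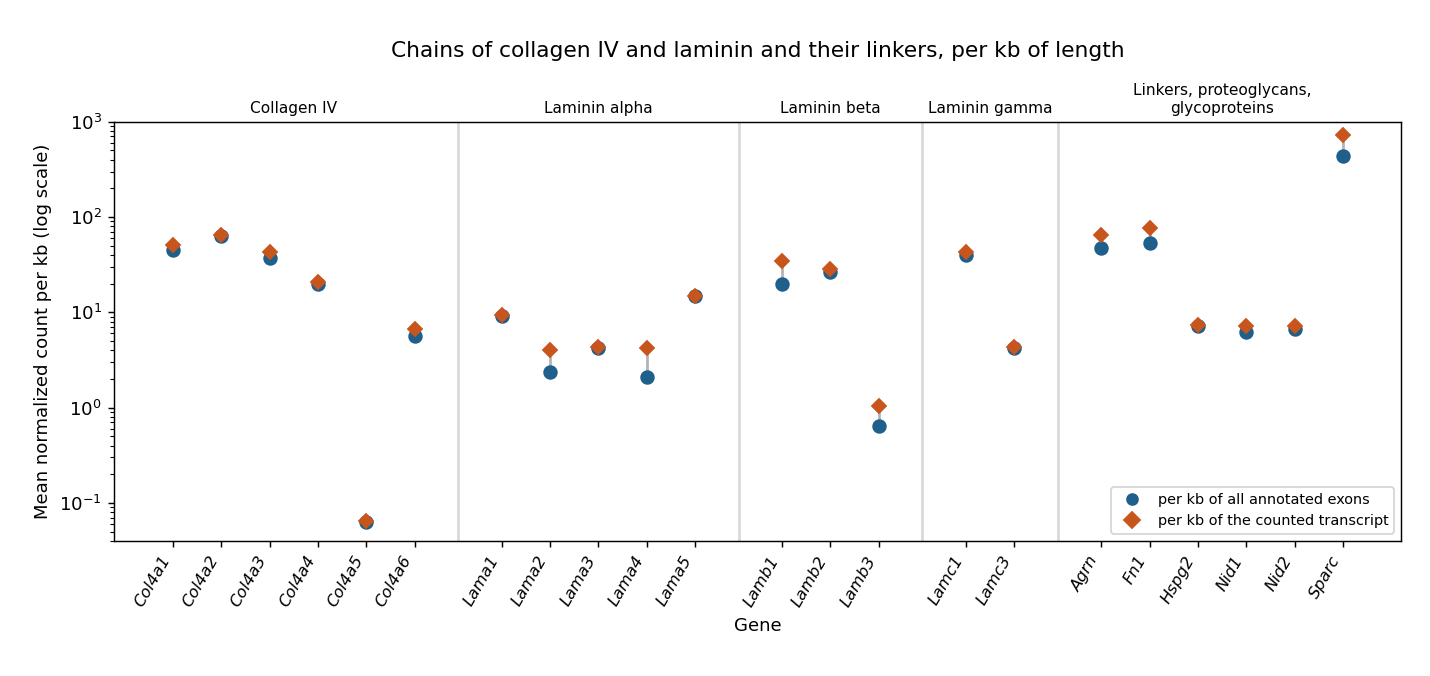
Mean normalized count per kb (log axis) of chains of collagen IV and laminin and of the linking proteins, with circles for the length of all annotated exons and diamonds for that of the counted transcript. Sparc is the highest on both scales, at 438 and 721, and the order of Lamb1 and Lamb2 differs between them.

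Of the remaining proteins, Sparc, a secreted collagen-binding glycoprotein, was the highest of all at 1659, above 96.5% of genes above 0. Fn1, the fibronectin gene, followed at 630, and Agrn, the heparan sulfate proteoglycan agrin known from the neuromuscular junction and the inner limiting membrane, at 442. Hspg2, which encodes perlecan, was at 104. The nidogens, which link laminin to collagen IV, were at 43.4 for Nid1 and 34.8 for Nid2. Per kb of exons Agrn was 6.56 times Hspg2, and Lamc1, to which nidogens bind, was 6.33 times Nid1. Exons of Nid2 share 437 bases with Rtraf on the opposite strand in GENCODE M21, those of Col9a3 share 234 with Tcfl5 and those of Col10a1 share 18 with Nt5dc1. Whether counting used the strand is not given in the sources used here.

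Col23a1 had the highest level of the collagens at 636. Per kb of exons it stood at 111, above the 62.7 of Col4a2, the next collagen on that scale. It encodes a transmembrane collagen. The other transmembrane genes counted under 1 transcript were much lower, Col17a1 at 14.8 and Col13a1 at 6.55. Col7a1, the collagen of the anchoring fibrils of skin, was at 146, and Col28a1 was at 1.83.

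Fibrillar collagens held 4.76% of the sum in 11 genes, of which 0 reached 100. The highest was Col27a1 at 82.4, then Col11a2 at 60.8, Col11a1 at 53.5 and Col5a1 at 53.3. Per kb of exons Col11a2 stood at 8.85 and Col27a1 at 6.33, but per kb of the counted transcript their order turned, to 10.1 and 10.8. Col1a1, Col1a2 and Col3a1, the main chains of fibroblast matrix in sclera and choroid, were at 17.5, 38.0 and 17.8. Col4a1 was 16.7 times Col1a1 per kb of exons. The list of connective tissue markers gave low values too, with 6 of 8 genes under 10, 1 of them (Dcn) counted under 2 transcripts. Of all 25905 genes, 12374 were at 10 or above. Ogn was the highest marker at 46.8, followed by Postn at 15.4 and Thbs2 at 9.31.

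The FACIT collagens, which decorate fibrils, had 9 genes, led by Col9a1 at 188, Col19a1 at 178 and Col20a1 at 130. Collagen IX is a heterotrimer of 3 chains, and Col9a2 and Col9a3 were lower at 59.8 and 51.6. Col9a1 was 1.92 times Col9a2 per kb of exons and 2.40 times per kb of the counted transcript. Col12a1 was at 88.2, and the lowest was Col14a1 at 5.38. Collagen VI, a microfibril close to basement membranes, was led by Col6a1 at 240. Its partners Col6a2 and Col6a3 were at 47.0 and 34.7, so that Col6a1 was 9.70 and 18.9 times as high per kb of exons. Per kb of the counted transcript the ratio to Col6a2 was 4.92. Collagen VIII, a network of vessel walls and of the membrane under the corneal endothelium, had counts of 81.8 for Col8a2 and 79.0 for Col8a1, which per kb of exons were 18.2 and 10.1 and per kb of the counted transcript 18.9 and 15.5. Col10a1, a marker of hypertrophic cartilage, was at 0.813, and the multiplexin Col15a1 at 15.4. Col6a5 and Col26a1 were not analysed here.

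The tissue label was checked against markers. The 10 rod genes had a median of 16984, with Gnat1 at 154477 and Prph2 at 29706, and 6 of 8 cone genes were above 100, led by Opn1sw (2800), Opn1mw (1415) and Gnat2 (1175). Of 8 bipolar cell genes 6 were at 100 or above and 2 under 10, and they were led by Prkca (4239) and Trpm1 (2866). Amacrine and horizontal cell genes had 5 of 6 at 100 or above, led by Gad1 (2415), Pax6 (2090) and Slc6a9 (1725). Ganglion cell genes had 7 of 8 at 100 or above and 1 under 10, led by Nefl (2999), Nefm (2384) and Thy1 (1730). Müller glia, which bear the inner limiting membrane on their end feet, had 7 of 8 genes above 100, led by Glul (17455), Dkk3 (5825) and Apoe (5242). Astrocyte and microglia genes were lower, with 0 of 5 and 0 of 7 at 100 or above. Their leading genes were Aldh1l1 (80.5), S100b (66.8) and Gfap (52.2), and Csf1r (87.6), C1qb (40.7) and Cx3cr1 (39.0). Of vessel genes, 2 of 9 endothelial markers reached 100, Kdr at 1359 and Flt1 at 1199, and Cdh5 was next at 99.5. Of 8 pericyte and smooth muscle genes 1 reached 100, Rgs5 at 282, followed by Acta2 at 78.6 and Tagln at 24.0. Pdgfrb, Myh11 and Abcc9, each counted under 2 or more transcripts, were at 0. Markers of tissues that touch the retina were measured as well. Pigment epithelium genes had a median of 124 in 8 genes, with 5 at 100 or above and 1 under 10. They were led by Ttr (540), Rgr (386) and Tyrp1 (204), with Rpe65 at 121 and Best1 the lowest at 2.72. Lens genes had a median of 130 in 8 genes, with 4 at 100 or above and 1 under 10. They were led by the crystallin genes Cryaa (898), Crybb2 (441) and Cryba1 (288). The other lens genes were Crygs (161), Bfsp1 (98.7), Bfsp2 (53.4), Mip (49.1) and Lim2 (8.74). Lens capsule and Bruch's membrane are themselves rich in collagen IV and laminin, and whether these transcripts came from those tissues, or had a part in the levels above, was not tested. Corneal markers were low, with 4 of 6 under 10 and Krt12 the highest at 11.9. Of these 4, Aldh3a1 was counted under 2 transcripts, and 12374 of all 25905 genes were at 10 or above.

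Genes that make, bind or cut the matrix were measured beside them. Of 19 receptor genes 5 reached 100, with Dag1, the laminin receptor dystroglycan, at 914, Itgav at 898 and the integrin subunit Itgb1 at 447. Of 20 genes for collagen synthesis and crosslinking 7 reached 100, led by P4hb (1303), Sec23a (926) and P4ha1 (650), and Serpinh1, the collagen chaperone, which was counted under more than 1 transcript, was listed at 0.439. Of 18 genes for proteases and their inhibitors 9 reached 100, led by Timp3 (1296), Timp2 (893) and Adamts5 (473). Timp3 is the inhibitor deposited in Bruch's membrane. Other matrix genes of the retina reached higher levels than any of the 59, such as Vtn (7666) and Impg2 (4161).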

How the data were processed

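Retinal RNA was sequenced from 8 spaceflight and 8 ground control mice. The authors' upstream steps were trimming (Trimmomatic), alignment by TopHat2 against mouse NCBI build 37.2, HTSeq counting and DESeq2 1.22.2 under R 3.5.1. The signal used here is the mean normalized count of the authors' deposited table, the mean over all libraries of counts divided by size factors. That table's fold-changes, standard errors, statistics and p-values are the authors' own comparison and were not used. All 32 count columns of the 2 deposited tables carry codes that match no label and were not used, so the planned test between the groups was not run and depth per sample was not analysed. From the count table, transcript accessions and symbols were read for 31616 counted features.

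Genes were matched by symbol to GENCODE M21 (GRCm38, not the build of mapping), which held all 59, and counted transcripts by accession, which held 57. All members of collagen IV, the laminins and the linking proteins were named, all others of at least 100 and the extremes of each family, and the 3 highest genes of other lists. Further genes were named after their values were seen. Some genes that this rule selects are not reported here. The rule for members reads symbols and no values, but it and the lists were chosen with earlier results of these data known. Functions for lengths, overlaps and glycine runs were tested on simulated data. Python 3.11.15, numpy 2.4.6, pandas 2.3.3 and matplotlib 3.10.9 were used.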

Additional observations from a re-analysis of the deposited data

How the results depend on the processing

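No paired analysis was possible because the count columns carry neither a group nor a replicate number. The fits with DESeq2, without a filter and with a replicate block were not run for the same reason, nor was any leave-one-out. Per kb of the longest transcript in place of all exons, the median level per kb was 7.11 against 5.64, the 5 highest genes held 62.0% of the summed level per kb against 57.5%, and the ratios were 1.28 for Col4a2 over Col4a1, 2.08 for Col4a3 over Col4a4, 0.857 for Col4a3 over Col4a1, 1.25 for Lamc1 over Lamb1, 1.60 for Lama5 over Lama1 and 1.195 for Lamb1 over Lamb2, the last reversed from 0.753. The length of the counted transcript, chosen after seeing the data, gave the same ratios, a median of 7.11 and a share of 61.8%. With coding length these were 9.24, 72.0%, 1.221, 1.78, 1.88 and 1.59, and 2 orders reversed, Col4a3 over Col4a1 (1.11) and Lamb1 over Lamb2 (1.205). Without division by length the ratios were 1.25, 1.76, 1.65 and 1.92, and the same 2 orders reversed, at 1.11 and 1.23. Above the median of ranked genes were 32 of the 59 members. When only genes of at least 10 were ranked, which raises that median and leaves out 10 members, 13 were above it. Of the 54 members counted under 1 transcript, 23 were above the median of such genes.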
